A study of Danio rerio with 3 samples.

Results

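The cells described here are dorsal hindbrain progenitors of the zebrafish embryo, selected on their UMIs (counted RNA molecules) of gsx1, gsx2, prdm13 and ptf1a. A cell was chosen by 1 rule: at least 500 and fewer than 6500 genes, under 5% mitochondrial UMIs, at least 3 UMIs over the 4 genes together, 0 UMIs of olig3 and atoh1a, fewer than 2 of mafba and fewer than 3 of hoxb1a. The rule found 1595 of the 23453 cells that passed the filters, split into 624 of 8548 wild-type, 470 of 6672 mutant and 501 of 8233 heterozygote cells. They are called gsx and prdm13 cells below.

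The study asked what shox2, a homeobox transcription factor gene, does in the developing inner ear, and dissected the otic vesicle with the tissue around it from embryos of about 22 hpf (hours after fertilization, as labelled). Wild-type embryos were shox2+/+ and carried the Tg(neurog1:dsRed) and Tg(neurod1:EGFP) reporters, which mark neuronal progenitors and neuroblasts. Mutant embryos were shox2Δ/Δ, an allele that lacks parts of exons 1 and 2, and were the GFP-negative embryos of a cross between fish with a shox2 Gal4 allele, the deletion and UAS:GFP. The heterozygote library is labelled shox2Δ/+, and its cross and reporters are not given in the sources used here. Each library held cells pooled from many embryos, and by the study's methods from more than 1 stage, so single embryos cannot be told apart, nor can genotype, reporter background and library. With 1 library per genotype no test between genotypes could be made, and the 95% intervals given here cover counting error only.

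In the vertebrate hindbrain, progenitors are arranged from dorsal to ventral in domains that each express their own transcription factors. The Gsx homeobox proteins mark dorsal progenitors below the rhombic lip, which itself expresses atoh1 and olig3, and Prdm13 and Ptf1a act there in the choice of inhibitory neurons, as known from mouse. Pax3 and Pax7 are dorsal factors that span these domains, Lbx1 marks dorsal progenitors and neurons below the rhombic lip, and Notch signalling with its her targets holds progenitors undifferentiated. Dorsal identity is set up by BMP and Wnt signals from the roof plate, whose targets include the msx, zic and id genes.

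The 3 libraries held 131099920 to 176280326 UMIs in cells that passed the filters, and the gsx and prdm13 cells summed to 13311760 UMIs (wild-type), 9596417 (mutant) and 9314172 (heterozygote). Their median depth was 19836.5, 18271 and 16286 UMIs in that order. The median mitochondrial share of their UMIs was 1.84%, 3.04% and 2.71%, against 1.89%, 2.67% and 2.50% in other cells. Libraries shared cell barcodes: 2083 between wild-type and mutant, 1089 between wild-type and heterozygote and 1497 between mutant and heterozygote, of which 551, 66 and 190 passed the filters in both. No barcode was a gsx and prdm13 cell in more than 1 library. Of these cells, 94 wild-type, 44 mutant and 6 heterozygote ones had a barcode that also occurred in another library. Share ratios, some counts of genes past 2-fold and some ratios of single genes are given below without such barcodes. The phox2bb and ascl1a splits, the shares of subsets and the neighbouring groups are not. The targeted gene was nearly silent in these cells in every library, with 2 UMIs over all wild-type, 4 over all mutant and 16 over all heterozygote cells, so it gives no check of the labels here.

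The share of cells that were gsx and prdm13 cells was 7.30% (exact binomial interval 6.76 to 7.87) of wild-type, 7.04% (6.44 to 7.68) of mutant and 6.09% (5.58 to 6.62) of heterozygote cells. The log2 ratio of shares was -0.05 (-0.23 to 0.12) for mutant over wild-type and -0.26 (-0.44 to -0.09) for heterozygote over wild-type. When each cell was thinned to 8000 UMIs, which left out 1070, 1297 and 1247 shallower cells, the shares became 5.82%, 6.47% and 5.18%, the mutant ratio became 0.15 (-0.05 to 0.36) and the heterozygote ratio -0.17 (-0.37 to 0.04). After thinning both intervals included 0. Without barcodes found in another library the ratios were 0.08 (-0.11 to 0.26) and -0.27 (-0.45 to -0.09). Of cells with 3 or more UMIs of the 4 genes, 84 wild-type, 157 mutant and 130 heterozygote cells held 2 or more of mafba, a gene of the caudal hindbrain segments. Some of these also held olig3 or atoh1a, so fewer were set aside for mafba alone. The mutant ratio without the limits on mafba and hoxb1a was 0.17 (0.00495 to 0.33).

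The 4 genes of the rule are given as a description, since they chose the cells. gsx1 led them, at 435 CPM (UMIs per 1000000) in wild-type, 526 in mutant and 440 in heterozygote cells, and was found in 74.8%, 81.7% and 80.4% of cells. gsx2 stood at 103, 58.0 and 74.6 CPM. prdm13 stood at 27.4, 61.2 and 40.8 CPM. The wild-type cells thus held the most gsx2 and the least prdm13, with the heterozygote cells between the other libraries for both genes. ptf1a was close to undetected, with 29 UMIs in 25 wild-type, 20 in 18 mutant and 18 in 14 heterozygote cells, so the set rests on gsx1, gsx2 and prdm13. In endothelium-marked cells, which should lack these genes and had median depths of 19508, 21234.5 and 21438 UMIs, gsx1 was found in 0%, 5.00% and 1.87% and ptf1a in none of 169, 100 and 107 cells. Just inside the limit, at 3 UMIs, stood 79, 63 and 82 cells with 252, 262 and 280 CPM of pax3a, 115, 91.6 and 132 CPM of pax7a and 81.2, 95.4 and 116 CPM of lbx1b. Just outside, at 2 UMIs, stood 103, 69 and 114 cells with 248, 264 and 215 CPM of pax3a, 123, 83.0 and 73.0 CPM of pax7a and 59.5, 50.1 and 67.3 CPM of lbx1b. fabp7a stood at 905, 616 and 709 CPM inside and 596, 401 and 681 CPM outside.

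The label was checked against genes the rule did not use. pax3a and pax7a, the dorsal factors, and lbx1b stood far above the other cells of the same library. lbx1b was at 103, 180 and 145 CPM against 7.01, 15.9 and 11.6 in other cells (wild-type, mutant and heterozygote, as in every triple below). pax7a was at 159, 147 and 149 CPM against 23.7, 23.7 and 24.4. pax3a was at 285, 372 and 291 CPM against 57.9, 71.0 and 54.9, and was found in 92.1%, 93.6% and 87.2% of cells, against 11.8%, 10.0% and 9.35% of endothelium-marked cells. The 13 intermediate and ventral progenitor genes summed to 94.6, 130 and 137 CPM, against 340, 338 and 313 CPM in other cells. Of the 13, 9 were lower than in other cells in every library. RNA of intermediate and ventral genes was thus low but not absent. The 25 dorsal progenitor genes summed to 1324, 2160 and 1677 CPM, against 728, 1023 and 872 CPM in other cells. Of the 25, 6 were lower than in other cells in every library. Of 7 with at least 50 CPM in each library, 3 were past 2-fold higher in each, beside 1.61% of all genes at that limit. Of the 22 dorsal interneuron fate genes, which include lbx1b, 13 were lower in every library, so the dorsal lists did not rise as a whole. A UMI of some hox gene, the family that patterns the hindbrain along its length, was found in 94.6%, 94.9% and 85.8% of the gsx and prdm13 cells and in 60.4%, 61.0% and 57.0% of endothelium-marked cells, with medians of 9, 11 and 7 against 2, 1 and 1 UMIs per cell. The heterozygote cells had the lowest share. Forebrain, midbrain and eye genes reached 3 UMIs in 33, 38 and 68 cells, of which 10, 7 and 43 had no hox UMI, so those heterozygote cells go against the hindbrain label. six3b, an eye-field and forebrain factor, was at 0, 0.625 and 17.6 CPM over all the gsx and prdm13 cells, and foxg1a, a forebrain factor, at 1.05, 7.50 and 16.6 CPM. Without cells that had 3 UMIs of these genes, the heterozygote share ratio was -0.39 (-0.58 to -0.21).

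RNA of other tissues was present in the cells. krt4, an epidermal keratin, was found in 53.8%, 74.9% and 69.9% of the gsx and prdm13 cells at 111, 90.9 and 162 CPM, where other cells held 1437, 4789 and 4452 CPM. Its share in endothelium-marked cells was 46.7%, 69.0% and 64.5%, which moves the same way between libraries. Over the lists for ear, neural crest and mesenchyme, epidermis, and endothelium and blood, 324, 393 and 384 cells held 3 UMIs or more, and 75, 83 and 61 did so without the epidermal list. The summed level in the gsx and prdm13 cells was 311, 227 and 518 CPM for the 6 epidermal genes, 95.3, 104 and 160 CPM for the 7 ear genes, 44.3, 89.1 and 64.8 CPM for the 12 neural crest and mesenchyme genes and 2.93, 14.3 and 3.97 CPM for the 9 endothelial and blood genes, with gata1a at 0 in every library. Without cells holding 3 such UMIs the share ratios fell to -1.60 (-1.99 to -1.24) for the mutant and -1.30 (-1.63 to -0.99) for the heterozygote. That step dropped 324 of 624 wild-type, 393 of 470 mutant and 384 of 501 heterozygote cells, unequal parts of the 3 libraries. The part of this RNA in the results between libraries was not tested further than by that alternative.

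Of 1986 genes with at least 50 CPM in the cells of each library, 32 were at least 2-fold higher than in other cells in all 3 libraries (1.61%), and 20 were when barcodes found in another library were left out. As the cells were chosen by expression, this is a description. The dorsal progenitor list and the neural stem and Notch list each gave 3 of the 32. lbx1b, pax7a, auts2b and pax3a came first, followed by fabp7a, a lipid-binding protein of radial glia, at 1063, 1033 and 895 CPM against 224, 178 and 190 in other cells. auts2b stood at 127, 148 and 143 CPM against 25.7 to 26.4 CPM in other cells. lrig1, a membrane regulator of growth factor receptors, stood at 104, 123 and 131 CPM against 27.4, 31.5 and 31.3. These levels and gaps were close in the 3 libraries. The next in order were zgc:112332, phox2bb, sox19b, mdka, gas1b, slc6a9, lrp5, mdkb and LO018022.1, with log2 ratios to other cells from 1.31 to 1.93 over genes and libraries. Midkine a (mdka), a secreted growth factor, was the most abundant of these 15, at 3159, 3565 and 3536 CPM. phox2bb, a homeobox gene of visceral neurons and their progenitors, was at 181, 177 and 144 CPM against 54.2, 47.9 and 38.4 CPM.

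**Figure D1:**
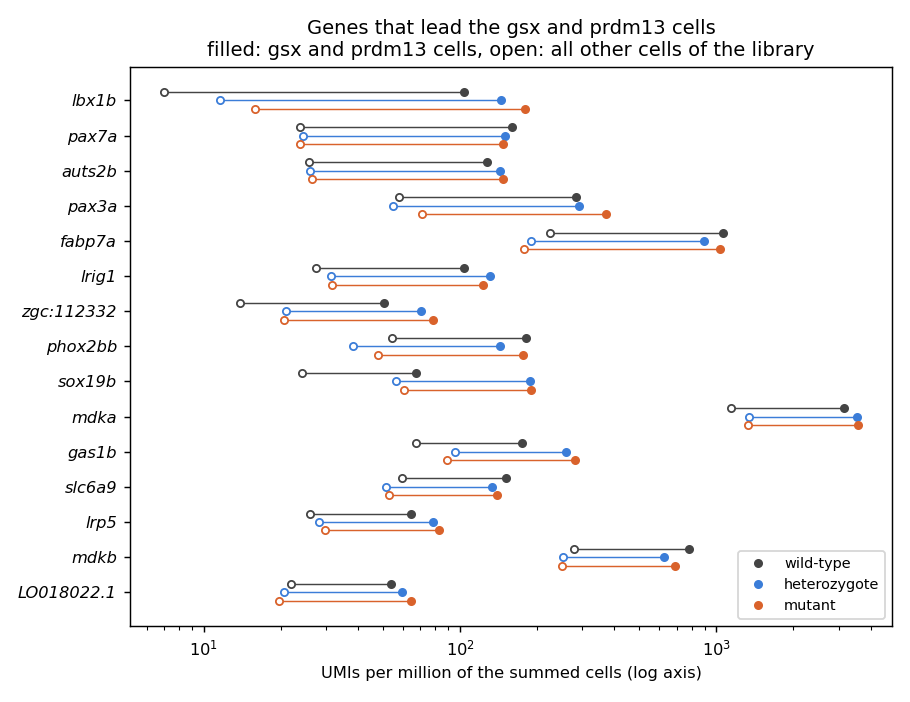
The 15 leading genes of the gsx and prdm13 cells (filled points) and all other cells of the same library (open points), in CPM on a log axis, with wild-type in dark grey, heterozygote in blue and mutant in orange. Every filled point lies to the right of its open point, and lbx1b has the widest gap, from 7.01 to 103 CPM in the wild-type library.

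Summed over its genes, the neural stem and Notch list was higher in these cells than in all other cells of the same library. Of its 18 genes at the level limit, fabp7a, sox19a and dla were past 2-fold in each library, beside 1.61% of all genes. sox19a, a SoxB1 factor, stood at 678, 795 and 763 CPM against 293, 303 and 278 CPM in other cells, and dla, a Notch ligand, at 416, 554 and 454 CPM against 195, 239 and 218 CPM. The median log2 ratio over the 18 was 0.73, 0.87 and 0.82. sox3, another SoxB1 factor, was at 773, 666 and 745 CPM against 460, 351 and 369 CPM. The 15 cell cycle genes had median ratios of 0.30, 0.39 and 0.37, with none past 2-fold, and pcna, a replication factor, stood at 1976, 1989 and 1938 CPM. The neuronal commitment list did not stand apart from other cells, with median log2 ratios of 0.03, -0.02 and -0.07 over the 3 genes at the level limit, and 11 of its 20 genes were lower than in other cells in each library. elavl3, an RNA-binding protein gene of new neurons, was at 376, 399 and 319 CPM against 380, 405 and 335 CPM. elavl4, a neuronal RNA-binding protein gene, was at 22.9, 33.8 and 24.5 CPM against 111, 111 and 106 CPM in other cells, and 1 cell held 45.6%, 38.3% and 79.4% of its UMIs. The Hedgehog co-receptor boc and the Wnt receptor fzd10 were also among the 32, at 320, 395 and 368 CPM and at 86.9, 98.6 and 79.3 CPM.

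The neighbouring domains, built by parallel rules, differed from the gsx and prdm13 cells in the genes of their rules and in some of the leading genes above. These groups were 570, 271 and 431 rhombic lip cells (olig3 and atoh1a), 833, 424 and 626 dbx1 cells and 353, 218 and 306 nkx2 cells, the last being ventral. lbx1b was at 0.899, 1.96 and 0.965 CPM in rhombic lip cells and at 2.48, 4.95 and 3.76 CPM in dbx1 cells. fabp7a was lower on both sides, at 107, 67.3 and 80.4 CPM in rhombic lip cells and 302, 262 and 306 CPM in dbx1 cells. nkx2 cells held 0.598, 0.958 and 0.552 CPM of lbx1b and 306, 303 and 259 CPM of fabp7a, so both genes were highest in the gsx and prdm13 cells among these groups. auts2b was at 9.81, 11.8 and 6.27 CPM in rhombic lip cells and 53.9, 60.2 and 58.4 CPM in dbx1 cells. Other dorsal genes followed a slope instead: zic1 was at 124, 168 and 149 CPM in rhombic lip, 50.6, 76.4 and 51.3 in the gsx and prdm13 cells and 5.02, 5.79 and 9.44 in dbx1 cells. fzd10 stood at 138, 148 and 128 CPM in rhombic lip cells and at 13.9, 18.2 and 12.0 CPM in dbx1 cells. pax6a went the other way, at 32.2, 53.0 and 69.5 CPM in rhombic lip cells, 125, 171 and 167 CPM in the gsx and prdm13 cells and 165, 249 and 219 CPM in dbx1 cells. irx3a was also low in rhombic lip cells, at 33.4, 63.6 and 42.5 CPM. It stood at 193, 318 and 264 CPM in the gsx and prdm13 cells and 176, 267 and 198 CPM in dbx1 cells. sox3 and dla, from the neural stem and Notch list, were at levels in dbx1 cells close to those given above. There sox3 was at 909, 699 and 802 CPM and dla at 378, 458 and 444 CPM. phox2bb was higher in nkx2 cells, at 800, 775 and 591 CPM, and nearly absent from rhombic lip cells, at 5.15, 10.9 and 8.09 CPM.

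The gsx and prdm13 cells were not uniform. Splits by gene were made after values had been seen, and the rule itself couples the 4 genes, since a cell with few gsx UMIs had to hold prdm13 or ptf1a to enter. Cells with gsx but neither prdm13 nor ptf1a numbered 457, 280 and 354, those with prdm13 or ptf1a but no gsx 32, 43 and 33, and those with both 135, 147 and 114. Any prdm13 or ptf1a was thus found in 26.8% (23.3 to 30.4), 40.4% (36 to 45) and 29.3% (25.4 to 33.5) of cells. After thinning to 8000 UMIs these shares were 16.4%, 29.9% and 20.8%. gsx1 without gsx2 was found in 371, 330 and 348 cells and gsx2 without gsx1 in 125, 43 and 65 cells, which is 20% (17.0 to 23.4), 9.15% (6.70 to 12.1) and 13% (10.2 to 16.2) of cells. The wild-type library had the largest share of cells with gsx2 and no gsx1, and the mutant library the largest share with prdm13 or ptf1a. After thinning the former shares were 19.7%, 9.31% and 13.5%.

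Cells with gsx2 only and cells with gsx1 only were compared next. Of 2061 genes at the level limit, 5 were at least 2-fold higher (0.243%) and 21 at least 2-fold lower (1.02%) in gsx2 cells in each library. The hox and segment list held 4 of the 21 lower genes, among 7 of its genes at the limit, and the dorsal progenitor list 4 among 8. hoxa2b, expressed from the second rhombomere back, was at 9.51, 21.6 and 13.7 CPM in gsx2 cells and at 121, 139 and 122 CPM in gsx1 cells. egr2b, the Krox20 factor of alternate hindbrain segments, was at 7.86, 4.04 and 13.7 CPM against 52.8, 140 and 142 CPM. cyp26b1, which breaks down retinoic acid, was at 38.5, 45.8 and 37.8 CPM against 343, 224 and 229 CPM. All of these were lower in gsx2 cells of every library, as was epha4a, a segment-restricted Eph receptor, at 17.4, 10.8 and 50.7 CPM against 105, 107 and 128 CPM. hoxd4a, a more posterior hox gene that was past 2-fold in only some of the libraries, went the other way, with log2 ratios of 1.97, 2.45 and 0.85. hoxa4a had ratios of 1.33, 2.08 and 0.65. The retinoic acid receptor raraa, at 272, 137 and 129 CPM in gsx2 cells and 97.9, 72.9 and 74.4 CPM in gsx1 cells, and crabp2a, a retinoic acid binding protein, with log2 ratios of 0.73, 1.08 and 1.30, had the same sign in every library. Without cells that held forebrain, midbrain and eye genes, the smallest ratio of hoxd4a over the libraries was 1.74 (1.39 to 2.08).

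The gsx2 cells also held less of 4 of the 8 dorsal progenitor genes at the limit, namely pax3a, pax7a, irx3a and pax6a. The other genes of that list were not past 2-fold in each library. pax7a stood at 36.8, 39.1 and 10.5 CPM in gsx2 cells and 208, 162 and 181 CPM in gsx1 cells, and pax3a at 152, 156 and 87.7 CPM against 332, 405 and 330 CPM. pax6a, irx1a, irx3a, irx5a, nr2f2, sox21a, egfl6, rnd2, robo4, epha7, endouc, znf703, myclb, pleca and LO018022.1 were the remaining genes past 2-fold lower. sox21a, a SoxB2 factor, was at 89.7, 84.9 and 97.4 CPM against 315, 362 and 338 CPM. The 5 higher genes were rbp5, a retinol-binding protein, ntn1a, the axon guidance factor netrin, flrt3, bcam and cygb1. rbp5 had the widest gap, at 201, 270 and 54.7 CPM against 21.7, 24.6 and 12.1 CPM. ntn1a was at 81.9, 152 and 173 CPM against 30.6, 47.6 and 32.1 CPM. The smallest ratio over libraries stayed at or below -2.01 for cyp26b1, hoxa2b and egr2b and between 1.39 and 2.63 for rbp5 under every alternative tried for them.

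**Figure D2:**
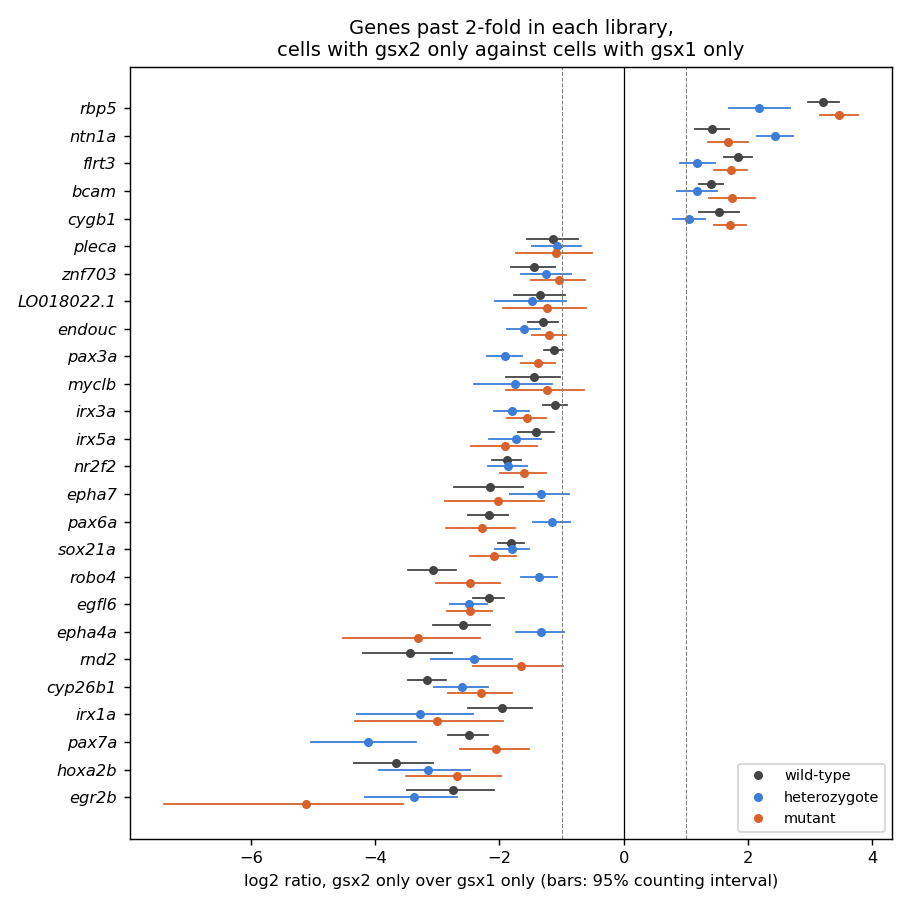
log2 ratio of CPM in cells with gsx2 and no gsx1 over cells with gsx1 and no gsx2, for the 26 genes past 2-fold in each library, with 95% counting intervals, wild-type in dark grey, heterozygote in blue and mutant in orange. rbp5 lies highest and egr2b, hoxa2b and pax7a lowest, and each gene has its 3 points on the same side of 0.

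Cells with prdm13 or ptf1a and cells with gsx only differed most in phox2bb. Of 2069 genes at the level limit, 7 were at least 2-fold higher (0.338%) and 2 at least 2-fold lower (0.0967%) in each library. From the neuronal commitment list 1 of 6 genes at the limit was among the 7, gadd45gb.1. phox2bb was at 20.4, 28.7 and 14.9 CPM in cells with prdm13 or ptf1a and at 242, 286 and 196 CPM in gsx only cells, log2 ratios of -3.57 (-3.92 to -3.24), -3.32 (-3.60 to -3.05) and -3.71 (-4.21 to -3.26). Cell by cell, prdm13 or ptf1a was found in 22 of 200, 27 of 158 and 18 of 151 cells with phox2bb, or 11%, 17.1% and 11.9%, and in 34.2%, 52.2% and 36.9% of cells without it. These shares are a description, since the rule used prdm13 and ptf1a and cells with phox2bb held more gsx1, at 507, 687 and 571 CPM against 400, 437 and 379 CPM, so that they could enter without prdm13. The cells with and without phox2bb had close median depths, 19815.5 and 19836.5 UMIs in wild-type, 18487.5 and 18156.5 in mutant and 17292 and 16018 in heterozygote.

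ascl1a, a proneural factor, was higher in cells with prdm13 or ptf1a. It stood at 135, 107 and 75.4 CPM in cells with prdm13 or ptf1a and at 12.9, 22.7 and 21.7 CPM in gsx only cells. This too is a description, since the rule used prdm13 and ptf1a. Cells with ascl1a held less gsx1, at 143, 297 and 284 CPM against 489, 580 and 464 CPM in the rest. They thus depended more on the other genes of the rule to enter. tfap2b, an AP-2 factor of inhibitory neurons and their precursors, was at 95.9, 65.4 and 69.4 CPM against 14.5, 9.98 and 7.39 CPM. nhlh2, a factor of newly formed neurons, was at 122, 52.2 and 69.4 CPM against 24.4, 17.2 and 12.1 CPM. The libraries differed in size but not in sign for each of the 3 genes. dlb, a Notch ligand of cells leaving the progenitor state, gadd45gb.1, hoxd4a and zgc:112332 were the other genes past 2-fold higher, and irx1a was the other lower one. pax2a, a marker of inhibitory interneurons that was under the level limit, was at 33.7, 28.4 and 38.8 CPM against 8.83, 7.80 and 18.1 CPM. ascl1b, the paralog of ascl1a, had ratios of -1.62, -0.89 and -0.91, the opposite sign. Leaving out the 10% of cells with the most UMIs left 5 genes past 2-fold in place of 9, and leaving out cells that held other tissues' markers left 3.

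**Figure D3:**
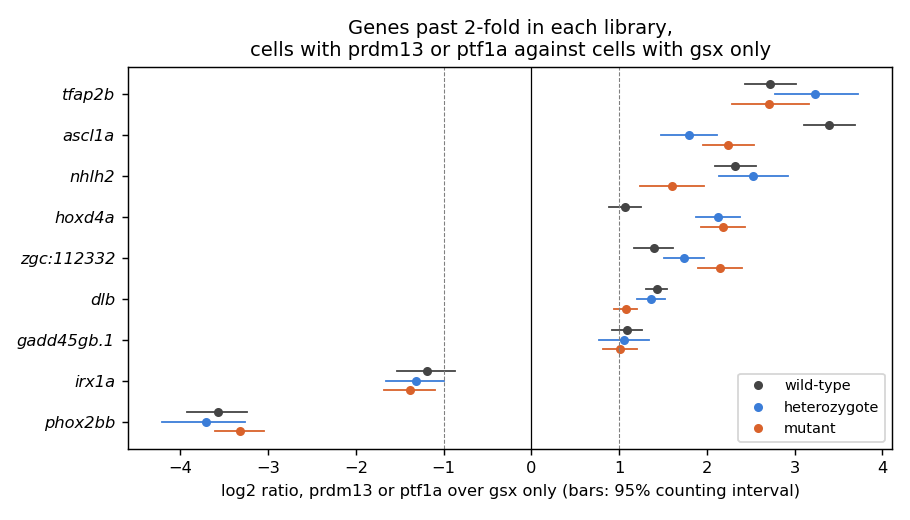
log2 ratio of CPM in cells with prdm13 or ptf1a over cells with gsx only, for the 9 genes past 2-fold in each library, with 95% counting intervals, wild-type in dark grey, heterozygote in blue and mutant in orange. phox2bb lies at -3.32 or below in every library, and tfap2b lies highest in the heterozygote library.

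Cells with phox2bb and cells with ascl1a were each compared with the rest of the gsx and prdm13 cells. The 200, 158 and 151 cells with phox2bb had 3 of 2073 genes at least 2-fold higher in each library (0.145%), namely pcdh18a, a protocadherin, nppc, a natriuretic peptide gene, and si:ch73-21g5.7, and 1 lower (0.0482%), scrt2, a Snail-family factor of new neurons. pcdh18a was at 69.2, 97.2 and 94.2 CPM against 11.1, 13.8 and 15.5 CPM. fabp7a was also higher in phox2bb cells, at 1558, 1718 and 1359 CPM against 819, 654 and 680 CPM, though not past 2-fold in each library. Intermediate and ventral genes, under the level limit, were split both ways. nkx6.1 was at 24.8, 21.7 and 9.53 CPM with phox2bb and 2.80, 4.69 and 1.88 CPM without, and nkx6.2 had log2 ratios of 2.39, 3.29 and 2.56. nkx2.2a had ratios of 4.45, 2.65 and -1.25, and dbx1a and olig2 were lower in each library. The phox2bb split was not repeated without cells that held ventral genes. The 96, 81 and 65 cells with ascl1a had 19 of 2074 genes higher (0.916%) and 1 lower (0.0482%), pax7a. Among the 19 were the Notch ligands dla and dld, the cell cycle inhibitor cdkn1ca, the neuronal factor neurod4, and tfap2b, sox11b, zic1 and zic2b. Forebrain, midbrain and eye genes, under the level limit, were split unevenly. In heterozygote cells dlx2a was at 101 CPM with ascl1a and 9.20 CPM without, and dlx5a at 38.5 and 4.48 CPM. emx3 had log2 ratios of 4.30, 4.97 and 1.79, while en2b was lower in each library. This split was not repeated without cells that held such genes. dla was at 910, 1096 and 984 CPM against 324, 428 and 370 CPM, and cdkn1ca at 287, 474 and 341 CPM against 105, 157 and 116 CPM. pax7a was at 67.2, 52.3 and 45.5 CPM in ascl1a cells and at 176, 169 and 166 CPM in the rest. Depth was close, with medians of 19684.5, 20473 and 17187 UMIs in ascl1a cells and 19873.5, 18058 and 16193.5 UMIs in the rest.

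Between genotypes, zic, msx and irx genes of the dorsal progenitor list were higher in mutant than in wild-type gsx and prdm13 cells. Most lay between the other libraries in heterozygote cells. In bulk sums such as these, more cells with a gene and more RNA per cell cannot be told apart, so shares of cells are given where they help. Of 2457 genes with at least 50 CPM in 1 of the 2 libraries, 113 were at least 2-fold higher (4.6%) and 29 at least 2-fold lower (1.18%) in the mutant cells. The heterozygote had 84 of 2413 higher (3.48%) and 25 lower (1.04%). Both comparisons share the wild-type library. Without barcodes found in another library 150 and 115 genes were past 2-fold, in place of 142 and 109. The median log2 ratio over all these genes was 0.07 for the mutant and 0.00 for the heterozygote. Of the mutant's 113 and 29 genes, 65 and 17 were also past 2-fold the same way in all other cells. Of the heterozygote's 84 and 25 genes, 50 and 12 were.

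The dorsal progenitor list had 14 genes at the level limit. Of these, 5 were past 2-fold higher and 0 lower in the mutant cells, beside 4.6% and 1.18% of all genes. Their median log2 ratio was 0.76, beside 0.39 in other cells and 0.07 over all genes. In the heterozygote cells 2 of 10 were past 2-fold higher, zic2a and msx1b, and 0 lower, beside 3.48% and 1.04% of all genes. The median there was 0.41, beside 0.24 in other cells. zic2a, a zinc finger factor of the dorsal neural tube, was at 32.2, 127 and 74.4 CPM. Its log2 ratio was 1.98 (1.82 to 2.15) for the mutant and 1.21 (1.03 to 1.39) for the heterozygote, against 0.37 and 0.22 in all other cells. It was found in 33.5%, 63.0% and 49.3% of the cells, and in 19.4%, 49.0% and 35% after thinning to 8000 UMIs. Endothelium-marked cells, at the depths given above, had a UMI of it in 33.1%, 33.0% and 34.6%. The wild-type share was close to these, and the mutant and heterozygote shares were above them. Ventral nkx2 cells, where zic genes are low, held 7.63, 6.47 and 9.94 CPM of zic2a. Whether the share in endothelium-marked cells is a background level was not tested. The wild-type level was the lowest in the gsx and prdm13 cells and not in the nkx2 cells.

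zic5 followed the same order, at 20.2, 61.0 and 43.6 CPM, with log2 ratios of 1.59 (1.38 to 1.81) and 1.11 (0.88 to 1.34). The zic family was not moved evenly: zic2b, at 132, 260 and 175 CPM, had a mutant ratio of 0.97 (0.89 to 1.06), and zic1, at 50.6, 76.4 and 51.3 CPM, 0.60 (0.44 to 0.75) with 0.02 in the heterozygote.

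msx1b, a homeobox target of BMP signals, was at 26.3, 83.9 and 54.1 CPM, log2 ratios of 1.67 (1.49 to 1.86) and 1.04 (0.84 to 1.24), against 0.82 and 0.56 in other cells. It was found in 30.4%, 60.0% and 44.7% of cells, against 27.8%, 25% and 28.0% of endothelium-marked cells. msx1a was at 5.71, 23.9 and 18.0 CPM, ratios of 2.06 (1.68 to 2.46) and 1.66 (1.26 to 2.07). msx3 was at 69.4, 114 and 92.4 CPM, ratios of 0.71 (0.58 to 0.84) and 0.41 (0.28 to 0.55), while in all other cells it had the opposite sign, -0.27 and -0.35. The median cell held 65.7, 194 and 121 CPM of the 3 msx genes together. irx1b, an Iroquois factor, was at 19.2, 86.6 and 48.0 CPM, ratios of 2.17 (1.97 to 2.38) and 1.32 (1.09 to 1.55), but also 1.15 and 0.60 in other cells. ascl1b was at 40.0, 69.7 and 41.8 CPM, a mutant ratio of 0.80 (0.63 to 0.97) against -0.06 in other cells.

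pax3a and pax7a had mutant ratios nearer 0 than the zic, msx and irx genes above. pax3a had a mutant ratio of 0.39 (0.32 to 0.45), and pax7a -0.11 (-0.21 to -0.02), with pax7a turning to 0.31 (0.10 to 0.51) without cells that held other tissues' RNA. lbx1b was at 0.80 (0.70 to 0.90) in these cells and 1.18 in others, and irx3a at 0.72 and 0.70. The median cell held 415, 458 and 424 CPM of the pax3 and pax7 genes. Hox genes, beside them, had a median of 472, 595 and 435 CPM per cell. hoxb2a had a mutant ratio of 0.80 (0.65 to 0.95) against 0.19 in other cells, and hoxb1b, at 3.53, 17.1 and 5.05 CPM, 2.28 (1.80 to 2.78) against 1.07. The part of position along the hindbrain in the dorsal gene levels was not tested.

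**Figure D4:**
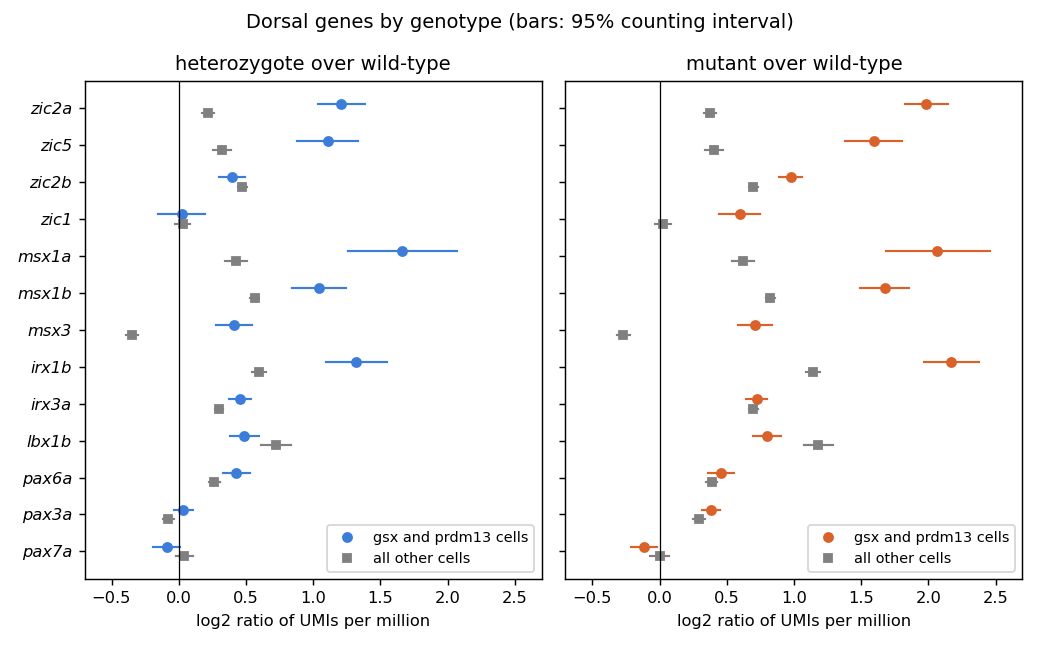
log2 ratio of CPM over wild-type for 13 genes of the dorsal progenitor and dorsal interneuron fate lists, in heterozygote (left) and mutant (right) libraries. Circles are gsx and prdm13 cells and grey squares all other cells, with 95% counting intervals. zic2a, zic5, msx1a, msx1b and irx1b lie at 1.59 or above in the mutant gsx and prdm13 cells, to the right of the grey squares, and pax3a and pax7a lie near 0.

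The mutant ratios of zic2a, msx1b and irx1b kept their sign within the subsets of the gsx and prdm13 cells. zic2a had a mutant ratio of 2.13 (1.92 to 2.34) in cells with gsx1 only, 1.38 (0.97 to 1.79) in cells with gsx2 only and 2.16 (1.87 to 2.46) in cells with prdm13 or ptf1a. msx1b had 2.12 (1.86 to 2.38), 1.38 (0.86 to 1.89) and 1.00 (0.73 to 1.27) in the same subsets, and irx1b 1.85 (1.59 to 2.11), 1.91 (1.35 to 2.48) and 2.64 (2.31 to 2.99). zic1 did not keep its sign, at 116, 64.7 and 83.7 CPM in cells with gsx2 only, a mutant ratio of -0.85 (-1.32 to -0.40). In the neighbouring domains the ratio of zic2a was 0.85 (0.74 to 0.96) in rhombic lip cells, 0.63 (0.30 to 0.97) in dbx1 cells and -0.24 (-0.97 to 0.46) in nkx2 cells. That of msx1b was 0.97 (0.91 to 1.04), 0.65 (0.41 to 0.89) and -0.42 (-0.93 to 0.08). irx1b differed from these in being raised in all of the neighbours, at 0.86 (0.72 to 1.01), 1.56 (1.41 to 1.70) and 2.06 (1.82 to 2.32). Under the alternatives the mutant ratio ran from 1.68 to 1.99 for zic2a, 1.45 to 2.05 for msx1b, 1.26 to 1.64 for zic5 and 2.07 to 2.41 for irx1b, barcodes in another library left out included.

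**Figure D5:**
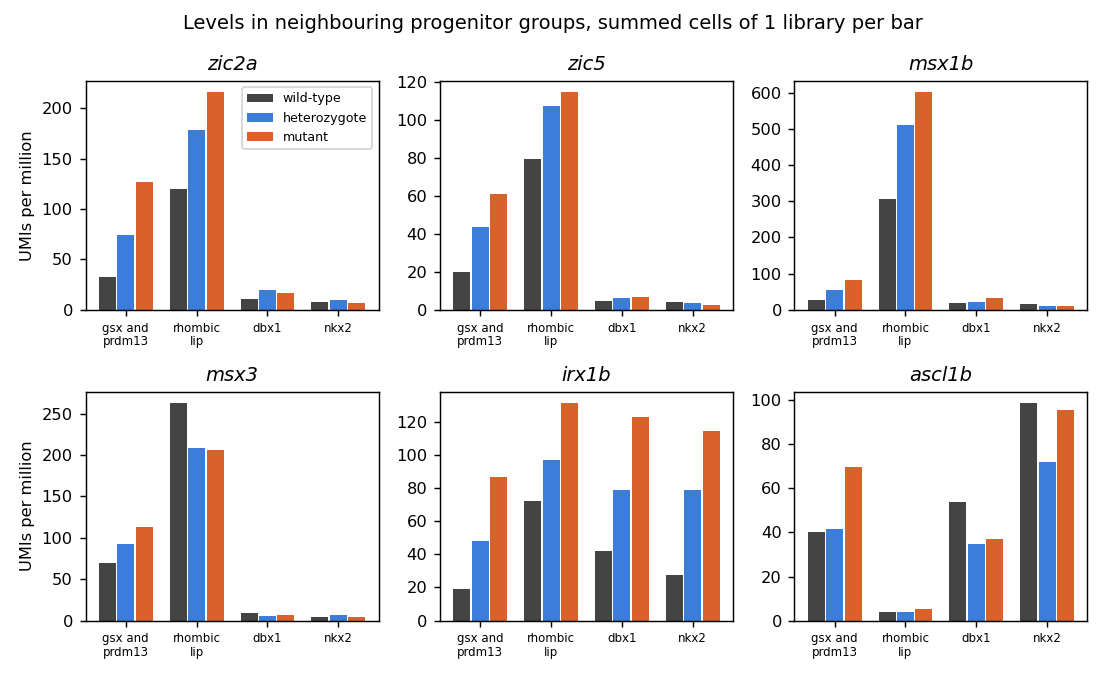
Levels of 6 genes in CPM in the gsx and prdm13 cells, rhombic lip, dbx1 and nkx2 cells, 1 bar per library, with wild-type in dark grey, heterozygote in blue and mutant in orange. In the gsx and prdm13 cells zic2a, zic5, msx1b, msx3 and irx1b ascend from wild-type over heterozygote to mutant, whereas msx3 is highest in the wild-type rhombic lip cells.

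The differences of her15.1, her12 and id3 between libraries were of like size in other cells. Of 18 Notch and neural stem genes at the level limit, 1 was past 2-fold higher and 1 lower in mutant cells, beside 4.6% and 1.18% of all genes. her15.1, a Notch target of the hairy family, was at 1026, 2622 and 2655 CPM, ratios of 1.35 and 1.37, against 1.12 and 1.26 in other cells. her12 was at 710, 349 and 252 CPM, ratios of -1.03 and -1.49, against -1.42 and -1.67. The her4 and her15 genes have near-identical copies, and how reads of such copies were counted was not tested. The heterozygote and mutant libraries stood together, apart from the wild-type, for both genes. her6, at 196, 300 and 429 CPM, was past 2-fold higher in the heterozygote only, and whether the 2 ratios differ was not tested. sox19b was at 67.5, 188 and 187 CPM, ratios of 1.48 and 1.47 against 1.33 and 1.22. In the BMP and Wnt response list, where the same shares of all genes hold, id3, a BMP target, was the 1 of 7 past 2-fold in the mutant, at 63.7, 159 and 148 CPM with 1.32 against 1.25 in other cells. axin2, a Wnt target, was at 62.4, 116 and 86.3 CPM, a mutant ratio of 0.90 (0.77 to 1.03) against 0.43. Of the 8 hox and segment genes 1 was past 2-fold higher, beside 4.6% of all genes, namely egr2b, at 45.3, 116 and 117 CPM and with 1.36 against 1.59 in other cells.

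Lists this short could give 0 genes past 2-fold at the shares of all genes, 4.6% and 1.18% for the mutant and 3.48% and 1.04% for the heterozygote. None of 15 cell cycle genes was past 2-fold in either comparison, and their median ratios were -0.06 and -0.08. The widest difference was that of top2a, a topoisomerase of dividing cells, at 328, 198 and 210 CPM. None of the 3 Hedgehog pathway genes at the limit was past 2-fold. Of the neuronal commitment genes 0 of 5 were past 2-fold in the mutant, and in the heterozygote 1 of 4 was lower, tubb5, a tubulin, at 409, 206 and 187 CPM. neurod1, the neuroblast factor whose promoter drives the wild-type EGFP reporter, was at 37.7, 20.4 and 3.97 CPM, but 1 cell held 37.6%, 28.1% and 27.0% of its UMIs.

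The largest differences between genotypes were mostly shared with other cells. hspb1, a small heat shock protein, was at 11.6, 181 and 72.0 CPM, ratios of 3.96 (3.72 to 4.21) and 2.63 (2.38 to 2.89) against 1.71 and 1.09 in other cells, and was found in 17.3%, 78.1% and 47.3% of cells, with 18.9%, 46.0% and 41.1% in endothelium-marked cells. serpinh1b, a collagen chaperone, was at 6.39, 68.6 and 44.4 CPM, ratios of 3.42 and 2.80 against 2.16 and 1.41. Both ratios were larger in the gsx and prdm13 cells than in all other cells. mettl16, an RNA methyltransferase, was at 7.21, 97.0 and 86.6 CPM, with 3.75 and 3.59 against 3.44 and 3.27. pde6d, brf2, CR847906.1, BX284696.1 and apoeb had mutant ratios from 2.65 to 3.29 in the gsx and prdm13 cells and heterozygote ratios from 2.21 to 2.85. spc24, a kinetochore subunit, was at 58.7, 7.82 and 6.33 CPM, with -2.91 and -3.21 against -2.60 and -3.00. tuba1b, prdx3, sf3b5 and hist1h4l were likewise lower in the gsx and prdm13 cells and in all other cells of both libraries. The mutant and heterozygote libraries thus differed from the wild-type in the same direction for these genes. For hspb1 and serpinh1b the heterozygote level lay between those of the other libraries. The median mitochondrial share of the gsx and prdm13 cells, given above, had the same order of libraries, and its part in these ratios was not tested.

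capns1b, a calpain subunit, differed more in the gsx and prdm13 cells than elsewhere, at 90.7, 32.2 and 28.7 CPM, with ratios of -1.49 (-1.68 to -1.31) and -1.66 (-1.86 to -1.47) against -0.18 and -0.38. tpi1b, a glycolytic enzyme, was at 50.1, 17.1 and 30.9 CPM, -1.55 (-1.81 to -1.30) against -0.49. col5a1, a fibrillar collagen, was at 16.0, 68.2 and 32.3 CPM, 2.09 (1.87 to 2.32) against 0.18. zgc:101744, at 2.85, 46.7 and 50.4 CPM, led the heterozygote ranking with 4.14 (3.66 to 4.66), followed by mettl16 and by si:ch211-209j10.6, at 5.78, 45.5 and 61.9 CPM.

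Some of the top ranks rested on 1 or a few cells. sst1.2, a somatostatin, was at 0.225, 60.5 and 0.322 CPM, and 1 mutant cell held 99.0% of its UMIs. cart4, a neuropeptide gene, was at 66.4 CPM in wild-type cells from 6 cells, 1 of which held 76.1%, at 0 UMIs in the mutant and 1 in the heterozygote. icn, an S100-type calcium-binding protein, was at 13.3, 64.8 and 9.56 CPM, with 87.0% in 1 mutant cell. fabp11a was at 20.5, 21.3 and 204 CPM, but its heterozygote ratio of 3.31 (3.13 to 3.50) fell to 0.22 (-0.06 to 0.49) without the cells that held forebrain, midbrain and eye genes. krt4, cyt1 and pfn1, whose mutant ratios in these cells were -0.29, -0.81 and -1.18, had 1.74, 1.63 and 0.75 in other cells, and 1 wild-type cell held 29.7%, 28.2% and 33.4% of their UMIs. rbp5, described above for gsx2 cells, was at 55.4, 49.7 and 19.1 CPM, a heterozygote ratio of -1.53 (-1.78 to -1.30). DsRed was at 83.9, 0.313 and 1.29 CPM and EGFP at 61.3, 3.75 and 196 CPM, where 1 heterozygote cell held 65.5%.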

How the data were processed

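The deposited matrices hold UMI counts per gene and cell, which the authors made with Cell Ranger 4.0.0 (per the file headers) on GRCz11 (per the submitters' processing notes) with DsRed and EGFP added, and without normalization. Rows of 1 symbol were summed (25109 rows to 24454 symbols). The 240 genes of 18 lists held 236 found in the files. Members and lists were chosen with earlier results of these data known. UMIs were summed per library and group, and CPM is UMIs per 1000000 of that sum. Ratios have exact conditional binomial intervals and shares exact Clopper-Pearson ones, at 95%. A library at 0 UMIs was set to 3 UMIs in a ratio. With 1 library per genotype no test was made, and a gene was counted when past 2-fold with at least 50 CPM. Named genes were those of the rule and its exclusions, list genes that reached 20 CPM in any library, the 10 highest and 10 lowest mutant ratios, 5 and 5 for the heterozygote and for the difference from other cells, and 15 leading genes. Genes outside that rule, from the splits by gsx, prdm13, phox2bb and ascl1a, were chosen after their values were seen. Mitochondrial genes were left out. No doublet caller was run. Leaving out the 10% of cells with the most UMIs, and cells with other tissues' markers, was tried in its place. The marker filter dropped 51.9%, 83.6% and 76.6% of wild-type, mutant and heterozygote gsx and prdm13 cells, mostly through epidermal genes. It could not tell doublets from single cells that held RNA of other tissues. In simulated sums with counting error only, 200 of 2223 genes were changed 2-fold between mutant and wild-type. For 100% of them the interval left out 0 with the right sign. The simulation held no variation between cells or libraries, so it checks only the interval calculation and not the counts past 2-fold. Tools were pandas 2.3.3, scipy 1.17.1 and numpy 2.4.6 in Python 3.11.15, and matplotlib 3.10.9. Some genes that the rule names are not reported here.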

Additional observations from a re-analysis of the deposited data

How the results depend on the processing

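The counts past 2-fold depend mainly on the level limit. At 20 CPM there were 288 genes for mutant over wild-type, 247 for the heterozygote, 54 leading genes, 45 between gsx2 and gsx1 cells and 24 between prdm13 and gsx only cells. At 100 CPM there were 78, 56, 23, 14 and 3. Leading genes numbered 20 without barcodes found in another library. The prdm13 comparison had 9 genes, 5 without the 10% of cells with the most UMIs and 3 without cells holding other tissues' markers. The share ratio for mutant over wild-type went from -0.05 to 0.15 with thinned cells, 0.17 without the mafba and hoxb1a limits and -1.60 without cells holding other tissues' markers, and the heterozygote's from -0.26 to -0.0901 and -1.30 in the last 2 of these. Of 757 values for single genes under 10 alternatives, 571 stayed within the counting interval of the reported value, 155 moved beyond it and 31 changed sign. The changes of sign were all in cart4, cyt1, icn, krt4, pax7a and pfn1. The mutant ratio of cyt1 was 2.86 with a limit of 2 UMIs, 1.43 with every deposited barcode, 1.60 with thinned cells, 0.55 without the cells with the most UMIs, 0.36 without cells holding other tissues' markers, 0.52 without barcodes in another library and 0.55 without cells with forebrain, midbrain and eye genes. In the same order, krt4 had 3.29, 1.64, 1.54, 0.74, 0.68, 0.70 and 0.76, and 0.27 with a limit of 4 UMIs, and pfn1 had 0.51, 0.49, 1.24, 0.14, 0.21, 0.0785 and 0.20. In the last 4 of those alternatives icn had -0.73, -1.05, -0.65 and -0.78. cart4 had 3.86 for the mutant and 3.33 for the heterozygote without cells holding other tissues' markers, and 0.41 for the mutant without barcodes in another library. pax7a had 0.31 and, without forebrain, midbrain and eye cells, 0.0110. The alternatives on shared barcodes and on forebrain, midbrain and eye genes were chosen after seeing the data. The causes were not tested. No paired analysis was possible because each genotype has 1 library.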
